A study of Homo sapiens with 29 samples.

Results

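MET, IGF1R, INSR, FGFR1, FGFR2, FGFR3, EPHA2, DDR1, MST1R and ROR1 are 10 receptor tyrosine kinases that can carry growth signals when the EGF receptor is blocked. They were chosen by name, and they are 10 of 35579 genes measured. Their level is in TPM, in which reads are scaled to transcript length and to a fixed library total, summed over all GENCODE 29 transcripts of the gene. RNA of PC9, a lung adenocarcinoma line whose growth depends on mutant EGFR, was measured by polyA RNA-seq in 29 libraries, 1 per line and treatment. The parental line (PAR) carries its own AXL. The knockout line (KO) was made from it with a CRISPR guide against the AXL kinase domain, and the 8 other lines are KO cells that were transduced with AXL by lentivirus and sorted for GFP. WT cells received the wild-type receptor and KD cells a version without kinase activity, and in the other 6 lines the added AXL has phenylalanine in place of a tyrosine (Y634F, Y643F, Y698F, Y726F, Y750F and Y821F). Only a minority of the cells in the transduced lines expressed AXL, as the study's supplement states, and the rest lacked it. Cells were left untreated (UT) or were given the EGFR inhibitor erlotinib at 1 μM for 24 h, alone (E) or with AF154 (EA). AF154 is an antibody that activates AXL and was given at 300 ng/mL. The time at which untreated cells were collected is not stated. There were 10 UT, 10 E and 9 EA libraries, and KO with EA was not analysed here.

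Receptor tyrosine kinases span the cell membrane. In many of them a ligand bound outside brings receptors together, their kinase domains phosphorylate each other, and adaptor proteins then feed the RAS-ERK and PI3K-AKT pathways. Several receptors feed the same pathways, so in lung cancers with mutant EGFR a receptor such as MET or IGF1R can keep them running while EGFR is inhibited, which is called bypass signaling. Only RNA was measured here, so nothing below is a measure of receptor activity.

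The lines expressed all 7 epithelial markers examined, which summed to 8360 to 11620 TPM per library. None of the 4 lung alveolar markers reached a mean of 10 TPM, and NKX2-1 was at 0 in 16 of 29 libraries. The 4 fibroblast markers summed to 0.193 to 4.001 TPM and the 3 endothelial markers to 1.88 to 10.2 TPM. Of the 3 haematopoietic markers CD3E was at 0 in all libraries, PTPRC was at most 1.003 TPM, and CD68 lay between 27.8 and 68.1 TPM. The 4 mesenchymal markers summed to 131 to 478 TPM, most of it FN1. AXL, the knockout target, was at 92.4 TPM in UT and 79.3 TPM in E in KO, below the 217 to 852 TPM of all other libraries. PAR stood apart from the other lines in 20.5% of the 9085 genes kept (mean over 29 libraries of 10 TPM or more), in that its level lay outside all of theirs, on the same side, in UT, E and EA. In bulk RNA, fewer cells of a kind and less RNA per cell cannot be told apart, and a TPM is a share of the library, not an amount per cell.

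In untreated cells MET was the most abundant of the 10 receptors and FGFR2 was close to 0. By mean TPM the order was MET (146 ± 17.8, SD, n = 10), DDR1 (85.7 ± 10.02), EPHA2 (58.9 ± 8.91), MST1R (52.6 ± 3.52), FGFR1 (27.4 ± 5.69), IGF1R (25.3 ± 7.90), ROR1 (12.6 ± 1.59), FGFR3 (3.61 ± 0.858), INSR (2.295 ± 0.508) and FGFR2 (0.0840 ± 0.0289). The ranges of DDR1 and EPHA2, of EPHA2 and MST1R, of FGFR1 and IGF1R, and of FGFR3 and INSR overlapped, and the other neighbours did not overlap. Within a line, DDR1 was above EPHA2 in 10 of 10 lines and FGFR1 above IGF1R in 8 of 10.

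Under erlotinib the order changed at its middle. EPHA2 moved from above MST1R to below FGFR1, at 14.0 ± 2.36 TPM, and IGF1R moved up behind DDR1, at 56.0 ± 10.04 TPM. The median ratio of EPHA2 to IGF1R TPM within a line was 2.38 untreated (1.78 to 3.005), 0.249 in E (0.145 to 0.331) and 0.278 in EA (0.193 to 0.356). MET held 32.7 to 38.3% of the summed TPM of the 10 receptors in UT and 39.4 to 45.95% in E. The sum itself lay between 376 and 512 TPM in UT and between 460 and 522 TPM in E. In E the ranges of IGF1R and MST1R, of MST1R and FGFR1, of ROR1 and INSR, and of INSR and FGFR3 overlapped. MST1R was above FGFR1 in 6 of 10 lines there.

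**Figure D1:**
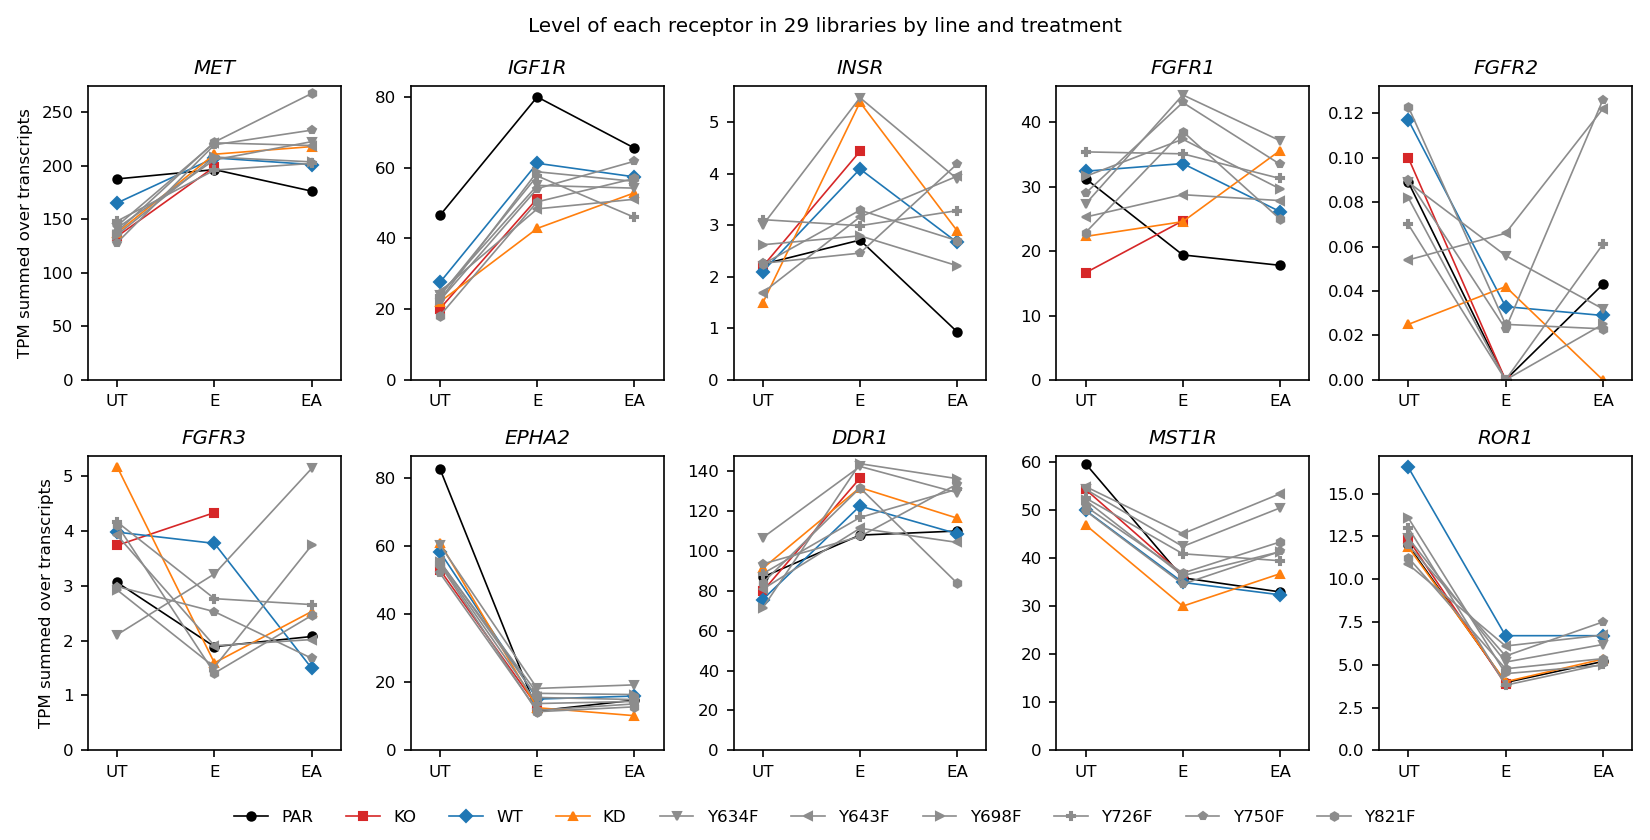
TPM summed over transcripts for each of the 10 receptors (vertical axes, linear, a scale per panel) in untreated cells (UT), erlotinib (E) and erlotinib with AF154 (EA), with a marker per library and a line joining the libraries of a cell line. EPHA2 and ROR1 dropped in all 10 lines between UT and E, IGF1R rose in all 10 with PAR (black) highest, and KO (red) has no EA library.

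The first comparison asks which receptors change when EGFR is inhibited. E and UT were compared within lines with limma on log2(TPM + 1), with the 10 lines as replicates, Benjamini-Hochberg adjustment over all genes tested and a threshold of 0.05. Of the 10 receptors, 6 had a mean of at least 10 TPM and were tested among 9085 genes. IGF1R, DDR1 and MET rose, EPHA2 and MST1R fell, and FGFR1 did not pass. Over all genes tested 36.4% were called higher and 42.6% lower, so 5 of 6 called is near the share among genes in general. The libraries of UT and E did not overlap for 4 of the 6 (MET, EPHA2, DDR1 and MST1R), against 36.5% of all genes tested. With genes of at least 1 TPM tested, INSR, FGFR3 and ROR1 could be fitted too, and 8 of 9 receptors passed, against 71.8% of the 14111 genes.

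MET (chr7:116672390-116798386, plus strand) encodes the receptor for hepatocyte growth factor, and its amplification is a well-known route to resistance against EGFR inhibitors. Its TPM in UT was 128 at the lowest, 140 at the median and 188 at the highest, and in E 196, 208 and 222. All 10 E libraries lay above all 10 UT libraries. The change was 0.52 on the log2(TPM + 1) scale (SE 0.056, adjusted p = 7.6e-07), and it was in the same direction in 10 of 10 lines. It was smallest in PAR, at 0.07, where untreated MET was already at 188 TPM, and largest in Y750F, at 0.77.

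MST1R (chr3:49887002-49903873, minus strand) encodes RON, the receptor for macrophage-stimulating protein and the closest relative of MET. In UT its TPM was 47.0 at the lowest, 52.4 at the median and 59.7 at the highest, and in E 30.05, 36.5 and 45.1. It fell by 0.49 on the log2 scale (SE 0.045, adjusted p = 1.2e-07), in 10 of 10 lines, so the 2 related receptors moved in opposite directions. The line changes ran from -0.72 in PAR to -0.28 in Y643F.

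IGF1R (chr15:98648539-98964530, plus strand) encodes the receptor for insulin-like growth factors. Its TPM in UT was 18.2 at the lowest, 23.2 at the median and 46.5 at the highest, and in E 42.9, 54.6 and 80.04. PAR was the highest library in both treatments, and without PAR no UT library was above 27.6 TPM. IGF1R rose in 10 of 10 lines, by 1.14 on the log2 scale (SE 0.061, adjusted p = 2.6e-10), which is 2.21-fold on that scale. The smallest rise was in PAR (0.77) and the largest in Y821F (1.42).

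INSR (chr19:7112255-7294034, minus strand), the insulin receptor, was rarer than its relative IGF1R in all 29 libraries. Its TPM in UT was 1.49 at the lowest, 2.24 at the median and 3.11 at the highest, and in E 2.46, 3.22 and 5.47. It was higher in E in 9 of 10 lines, by 0.49 on the log2 scale (SE 0.13, adjusted p = 0.0045 among genes of at least 1 TPM), and the groups overlapped. KD had the largest difference, 1.36, and Y726F the smallest, -0.04.

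EPHA2 (chr1:16124337-16156087, minus strand) encodes a receptor for ephrin-A ligands on neighbouring cells. It moved furthest of the 10 receptors. In UT it was at 52.2 TPM at the lowest, 55.5 at the median and 82.8 at the highest, and in E 11.4, 13.4 and 18.2. It fell by 2.002 on the log2 scale (SE 0.087, adjusted p = 2.6e-11), in 10 of 10 lines, and all E libraries lay below all UT libraries. The fall was largest in PAR, at -2.73, which had the highest untreated level, and lay between -2.19 and -1.67 in the other lines. That untreated level is a single library and enters the change in PAR, so the 2 values are not independent.

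DDR1 (chr6:30876421-30900156, plus strand) encodes a receptor that binds collagen. The UT libraries were at 71.3 TPM at the lowest, 85.3 at the median and 106.5 at the highest, and in E 107.1, 126.9 and 143.5. It rose in 10 of 10 lines, by 0.54 on the log2 scale (SE 0.065, adjusted p = 2.3e-06). The highest UT library, Y634F, lay just under the lowest E library, Y750F.

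ROR1 (chr1:63774022-64181498, plus strand) encodes a receptor for WNT5A with little kinase activity of its own. Its mean over the 29 libraries was 7.84 TPM, so it was tested only among genes of at least 1 TPM. In UT its level was 10.9 TPM at the lowest, 12.2 at the median and 16.5 at the highest, and in E 3.81, 4.63 and 6.70. It fell by 1.23 on the log2 scale (SE 0.080, adjusted p = 9.1e-09), in 10 of 10 lines, and the groups did not overlap. WT had the highest level in both treatments.

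FGFR1, FGFR2 and FGFR3 encode receptors for fibroblast growth factors. FGFR1 (chr8:38400215-38468834, minus strand) was at 16.6 TPM at the lowest, 28.1 at the median and 35.4 at the highest in UT, and at 19.4, 34.3 and 44.3 in E. It was higher in E in 8 of 10 lines, by 0.24 on the log2 scale (SE 0.11), and did not pass (adjusted p = 0.056). PAR went the other way, by -0.66, from 31.3 to 19.4 TPM, and without PAR the difference was 0.34 (adjusted p = 0.0015). It also passed without Y726F (0.27, adjusted p = 0.04997). These were the only 2 of 10 fits with a line left out that passed, and adjusted p reached 0.14 in the others. With library medians centred (0.29, adjusted p = 0.014), with quantile normalization (0.29, adjusted p = 0.015) and with mitochondrial genes left out (0.25, adjusted p = 0.044) it passed with all 10 lines. It did not pass without the line as a block (limma, adjusted p = 0.12) or with no filter on low values (0.16). With protein-coding transcripts only it reversed to -0.16 and did not pass.

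FGFR3 (chr4:1793293-1808872, plus strand) was at 2.11 TPM at the lowest, 3.82 at the median and 5.16 at the highest in UT, and at 1.41, 2.22 and 4.33 in E. The groups overlapped. It was lower in E in 8 of 10 lines, by -0.43 on the log2 scale (SE 0.16, adjusted p = 0.024 among genes of at least 1 TPM), and with no filter on low values it did not pass (adjusted p = 0.063). FGFR2 (chr10:121478334-121598458, minus strand) lay between 0.0249 and 0.123 TPM in UT, and was listed at 0 in 4 of the 10 E libraries (PAR, KO, Y698F and Y726F), so no fold is given. Of its 27 annotated transcripts, 3 were above 0 in any library.

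**Figure D2:**
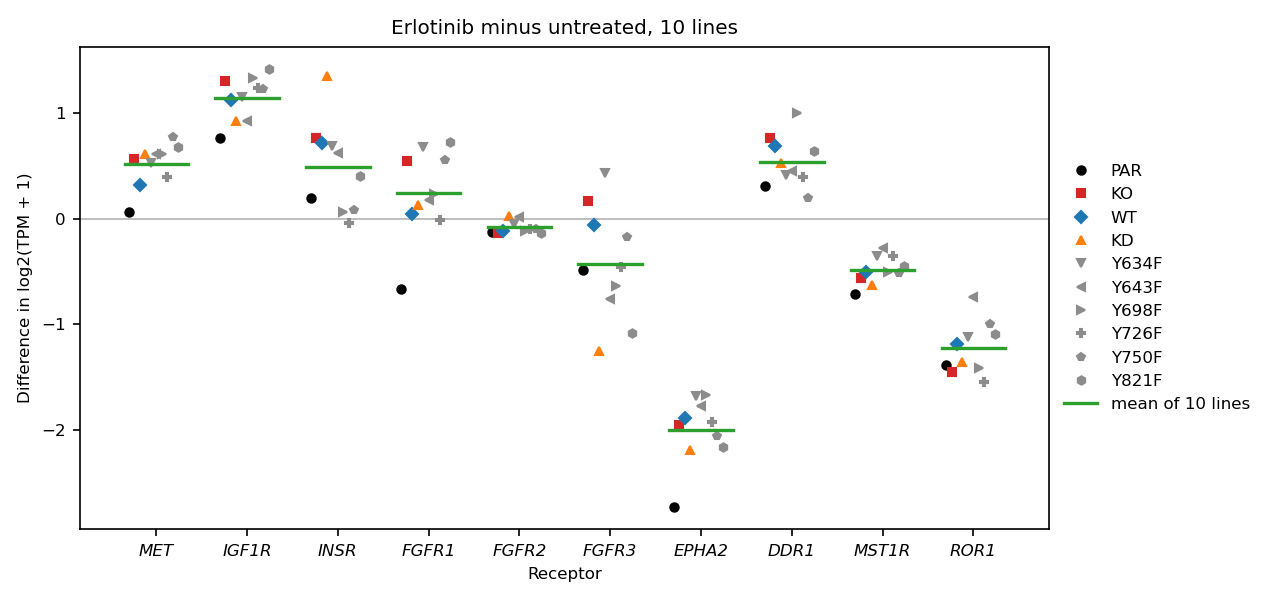
Difference in log2(TPM + 1) between erlotinib and untreated cells (vertical axis) for each receptor (horizontal axis), with a marker per line and a green bar at the mean of the 10 lines. EPHA2 sits between -2.73 (PAR) and -1.67, IGF1R between 0.77 (PAR) and 1.42, and FGFR1 has PAR alone far below 0, at -0.66.

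Promoter sequences are shown for MET and IGF1R, which rose, and for EPHA2, which moved furthest. They are from RefSeq (GRCh38.p14), 250 bases before and 50 after the RefSeq start of transcription, 5′ to 3′ on the strand of the gene, and they were matched for 9 of the 10 receptors by symbol. Capitals mark matches, on either strand, of 6 short motifs: GGGCGG (the GC box bound by SP1), TGAGTCA (AP-1), GGAATG (TEAD), GTAAACA (forkhead factors), CACGTG (the E-box bound by MYC) and CCGGAAG (ETS factors). None of the marked matches below overlaps another.
MET, chr7:116671946-116672245, plus strand: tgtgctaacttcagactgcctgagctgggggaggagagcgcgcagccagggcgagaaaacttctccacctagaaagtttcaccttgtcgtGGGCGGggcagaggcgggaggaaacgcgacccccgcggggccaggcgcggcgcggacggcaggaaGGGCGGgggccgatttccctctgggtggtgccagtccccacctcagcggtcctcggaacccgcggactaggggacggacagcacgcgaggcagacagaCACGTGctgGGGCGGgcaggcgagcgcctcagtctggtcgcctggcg
IGF1R, chr15:98648289-98648588, plus strand: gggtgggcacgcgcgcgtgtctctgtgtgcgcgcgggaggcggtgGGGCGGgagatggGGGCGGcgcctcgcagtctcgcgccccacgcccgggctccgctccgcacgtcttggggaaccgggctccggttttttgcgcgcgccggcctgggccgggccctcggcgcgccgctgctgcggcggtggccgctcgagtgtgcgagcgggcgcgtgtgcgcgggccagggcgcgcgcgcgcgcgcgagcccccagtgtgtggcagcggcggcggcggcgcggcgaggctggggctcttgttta
EPHA2, chr1:16156020-16156319, minus strand: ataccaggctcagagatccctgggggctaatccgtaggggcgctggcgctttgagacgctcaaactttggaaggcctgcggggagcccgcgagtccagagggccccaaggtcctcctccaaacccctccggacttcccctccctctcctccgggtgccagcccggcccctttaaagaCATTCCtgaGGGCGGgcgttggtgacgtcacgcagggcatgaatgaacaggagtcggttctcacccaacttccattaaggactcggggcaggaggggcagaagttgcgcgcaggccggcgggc

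GGGCGG was found in 7 of the 9 windows, 3 times in MET, 2 times in IGF1R and 1 time in EPHA2, and in 44.6% of 27305 promoter windows of the same length. EPHA2 held 1 match of GGAATG, on the other strand, which 14.05% of all windows hold. MET held 1 match of CACGTG (7.435% of all windows), and MST1R 1 match of CCGGAAG (10.7%). TGAGTCA and GTAAACA were in none of the 9 windows, and in 4.92% and 3.41% of all windows. DDR1 and ROR1 held none of the 6. The GC content was 69.3% for MET, 79.7% for IGF1R and 64.3% for EPHA2. A match describes letters in a window and is not a bound site.

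The TPM of a gene here is a sum over annotated transcripts, and these differ in what they encode. For each receptor the transcripts were also summed by class: full-length coding transcripts, whose coding sequence has at least 80% of the codons of the longest of that gene, all protein-coding transcripts, and transcripts annotated as retaining an intron, which encode no protein. These classes were chosen after the gene levels were seen and are given as values with no test. Full-length coding transcripts held a median of 74.8% of MET TPM, 53.3% of IGF1R, 45.0% of FGFR1, 92.4% of EPHA2, 51.4% of DDR1, 37.7% of MST1R, 72.1% of ROR1 and 47.8% of INSR in UT. For 8 of the receptors with a mean above 1 TPM the full-length coding transcripts differed between E and UT in the direction of the whole gene, by 0.44 or more in size. The mean differences were 0.44 for MET, 1.19 for IGF1R, 0.67 for INSR, 0.68 for DDR1, -2.07 for EPHA2, -0.53 for MST1R, -1.18 for ROR1 and -0.49 for FGFR3.

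For FGFR1 the full-length transcripts were nearly level. Its full-length coding transcripts were at 11.5 ± 1.66 TPM in UT (SD, n = 10), 11.7 ± 2.55 in E and 11.5 ± 2.455 in EA (n = 9), with a mean difference of 0.0040 on the log2 scale between E and UT and 6 of 10 lines higher. All its protein-coding transcripts together were at 16.2 TPM in UT and were lower in E by -0.16 (adjusted p = 0.12 with limma on protein-coding transcripts only). Its intron-retaining transcripts went from 5.42 to 12.5 TPM in UT to 9.73 to 25.6 TPM in E, higher in 9 of 10 lines by a mean of 0.76. They held a median of 35.3% of FGFR1 TPM in UT, 53.1% in E and 45.8% in EA.

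The most abundant FGFR1 transcript over the 29 libraries, FGFR1-216, is of that class. It has the highest mean only through the E (5.24 TPM) and EA (4.06 TPM) libraries, and in UT, at 1.97 TPM, it was below FGFR1-201, at 2.78 TPM, and several others. Its share of FGFR1 TPM, 7.27% ± 1.78 in UT and 15.5% ± 5.75 in E, is therefore a description of a transcript chosen in part by its level in E, with no test. FGFR1-216 has 5 exons and 823 bases, of which 720 lie in exons of the full-length coding transcripts and 103 do not. The reads that fall on the shared bases were divided between transcripts by estimation. FGFR1-215, next in abundance, has 2 exons and 545 bases, 281 of them outside those exons, and went from a mean of 2.77 TPM in UT to 4.60 in E.

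The share of the leading transcript was tested by two-sided exact sign flips within lines for 9 receptors, FGFR2 being left out since its share is undefined in libraries at 0. With the leading transcript chosen over the UT and E libraries alone, 0 of 9 receptors passed between E and UT. At an unadjusted p under 0.05 there were 3. IGF1R-201 went from 14.7% ± 4.80 to 20.8% ± 7.47 of IGF1R TPM (exact sign-flip test, p = 0.020, adjusted p = 0.12, higher in 8 of 10 lines). INSR-201 went from 45.2% ± 24.7 to 65.9% ± 18.1 (exact sign-flip test, p = 0.039, adjusted p = 0.12, higher in 8 of 10 lines). EPHA2-201 went from 92.4% ± 3.71 to 87.7% ± 7.68 (exact sign-flip test, p = 0.035, adjusted p = 0.12, lower in 7 of 10 lines). For FGFR1 the leading transcript was then FGFR1-215, at 10.5% ± 5.80 and 14.2% ± 3.78 (exact sign-flip test, adjusted p = 0.24, higher in 9 of 10 lines). IGF1R-201, too, was below another transcript in UT, at a mean of 3.53 TPM against 5.13 TPM for IGF1R-219. MET-202, DDR1-239, MST1R-201, ROR1-201 and FGFR3-202 had adjusted p between 0.38 and 0.75 in the exact test. With the choice made in UT alone, 0 of 9 passed as well.

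INSR and MET each have a pair of full-length transcripts that differ by a short coding segment. INSR-201 holds a 36-base exon, 12 codons, that INSR-202 lacks and that separates isoform B of the insulin receptor from isoform A. MET-201 holds 54 bases, 18 codons, at the start of an exon that MET-202 lacks. The segments are shown as the annotated transcripts have them (GENCODE 29, GRCh38), 5′ to 3′ on the strand of the gene and in lower case throughout, since the whole of each is what differs.
INSR segment, chr19:7150497-7150532, minus strand: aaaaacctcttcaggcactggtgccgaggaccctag
MET segment, chr7:116759337-116759390, plus strand: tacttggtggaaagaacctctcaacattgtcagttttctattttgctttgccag

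The transcript with the segment was the rarer of the pair for MET and the more abundant for INSR. MET-201 held a median of 19.1% of the pair in UT (9.05 to 22.1%), 17.0% in E (8.62 to 21.9%) and 15.96% in EA (8.27 to 22.2%). INSR-201 held a median of 83.1% in UT (47.7 to 100%), 89.8% in E (75.6 to 100%) and 88.1% in EA (64.1 to 100%). The ranges overlapped between treatments for both pairs. INSR-201 itself was at 0.979 ± 0.452 TPM in UT and 2.35 ± 0.709 in E, and INSR-202 at 0.245 ± 0.197 and 0.216 ± 0.167. All full-length INSR transcripts together were higher in E in 10 of 10 lines, at 0.596 TPM (PAR) to 1.92 TPM (KO) in UT and 1.27 (PAR) to 3.91 TPM (KO) in E.

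**Figure D3:**
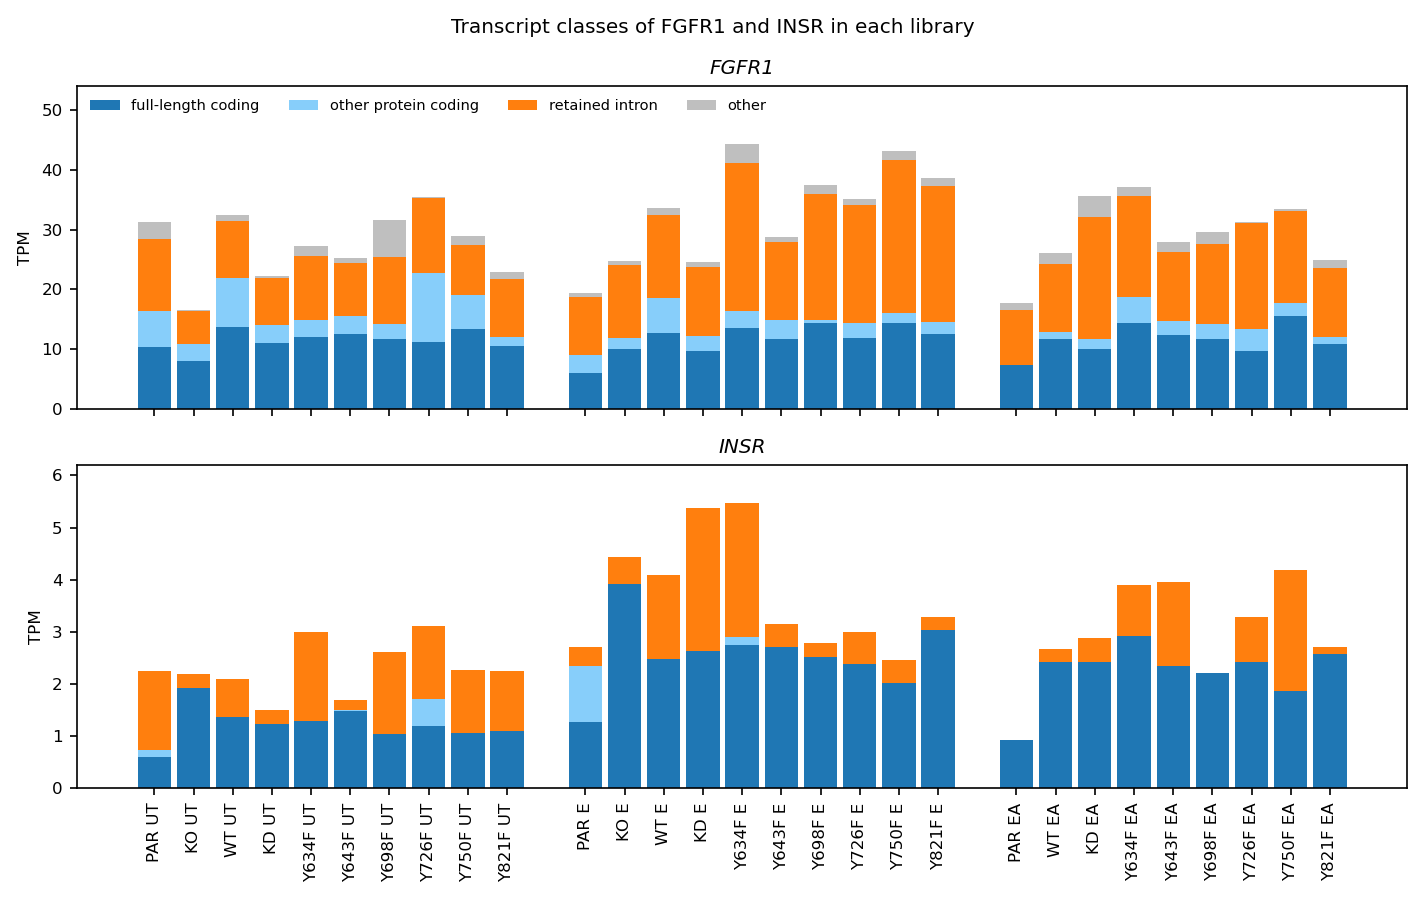
TPM of FGFR1 (upper panel) and INSR (lower panel) in each of the 29 libraries (horizontal axis), stacked by transcript class: full-length coding, other protein coding, retained intron and other. The full-length part of FGFR1 has a mean of 11.5 TPM in UT and 11.7 in E while the intron-retaining part has a maximum of 12.5 TPM in UT and 25.6 in E, and the full-length part of INSR is higher in E than in UT in all 10 lines.

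Genes around these receptors were described from lists of their ligands, ligand-processing and binding proteins, adaptors, turnover factors and other receptor tyrosine kinases. Over all 9085 genes 3309 rose and 3866 fell with erlotinib, with a median change of -0.04 on the log2 scale. Of 26 ligands 6 were abundant enough to test, of which 5 rose, 0 fell and 1 did not pass (median 1.18). The 10 TPM filter is a mean over 29 libraries, of which only 10 were untreated, so it favours genes that are higher with erlotinib. The ligand counts and median are therefore tilted toward rises, and the same filter was used for the lists that follow. WNT5A, a ligand of ROR1, rose by 2.29 (adjusted p = 1.0e-13), from 27.6 ± 3.39 to 140 ± 25.9 TPM, and EFNA1, an ephrin that binds EPHA2, by 1.67 (adjusted p = 6.4e-11), from 12.7 ± 2.35 to 42.2 ± 5.02 TPM. EFNA4, another ephrin-A ligand, rose by 1.22, from 9.80 to 24.1 TPM, and so met the filter only through its treated libraries. EFNA5, of the same family, differed by -0.25 and did not pass the threshold (adjusted p = 0.10 with limma). The collagens COL1A1 and COL5A1, of the kind that DDR1 binds, rose by 1.03 and 1.14. Ligand and receptor thus went in opposite directions for WNT5A with ROR1 and for EFNA1 and EFNA4 with EPHA2. COL1A1 and COL5A1 went in the same direction as DDR1. The other collagens listed stayed under 10 TPM in all libraries and were not tested. HGF, the ligand of MET, was listed at 0 in 28 of 29 libraries. MST1, the ligand of MST1R, had a mean of 4.41 TPM in UT and 7.65 in E and was not tested at the 10 TPM filter. IGF1 and IGF2 did not exceed 0.730 and 0.443 TPM in any library, and FGF2 had a mean of 6.18 TPM in UT and 3.76 in E.

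Of 24 ligand-processing, binding and co-receptor genes 16 were tested, of which 9 rose, 5 fell and 2 did not pass (median 0.22). IGFBP3, which binds insulin-like growth factors, rose by 2.50 (adjusted p = 4.5e-14), from 216 ± 71.4 to 1204 ± 302 TPM. IGFBP4 and IGFBP2, of the same family, fell by 1.89 and 1.02. The plexins PLXNB1 and PLXNB2, which can associate with MET and MST1R, rose by 1.16 and 0.84, and the heparan sulfate carrier SDC1 fell by 0.99.

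Of 26 adaptors and first effectors 21 were tested, of which 13 rose and 8 fell (median 0.35). GAB2, a docking protein, rose by 1.25, the adaptor GRB7 by 0.95 and the transcription factor STAT3 by 0.90. IRS1, the docking protein of IGF1R and INSR, fell by 0.72 (adjusted p = 2.1e-07), from 24.6 ± 2.77 to 14.6 ± 2.08 TPM, while IGF1R rose. The phosphatase PTPN11 (SHP2), which links receptors to RAS, fell by 0.57, and the adaptor GRB10 by 0.43.

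Of 19 genes of receptor turnover and phosphatases 14 were tested, of which 8 rose, 3 fell and 3 did not pass (median 0.26). The ubiquitin ligase CBLB, which marks receptors for breakdown, rose by 1.90, and the phosphatase PTPRK by 0.56. SH3KBP1, an endocytic adaptor of CBL, fell by 0.53, and the phosphatases PTPRF and PTPN1 fell by 0.49 and 0.17. Of 48 other receptor tyrosine kinases 12 were tested, of which 8 rose, 3 fell and 1 did not pass (median 0.34, against 0.38 for the 6 receptors tested here). Both medians depend on the 10 TPM filter, which favours rises. The 6 leave out ROR1, which fell by 1.23, and EPHA4, at 6.26 TPM in UT and 16.9 in E, met the filter only through its treated libraries. EPHA4 rose by 1.32, ERBB3 by 1.23 and AXL by 0.63, and TYRO3, EGFR and LMTK2 fell by 0.59, 0.56 and 0.31. AXL was higher in E in the 8 lines transduced with AXL, and lower in the 2 that were not, PAR (351 to 245 TPM) and KO (92.4 to 79.3 TPM).

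**Figure D4:**
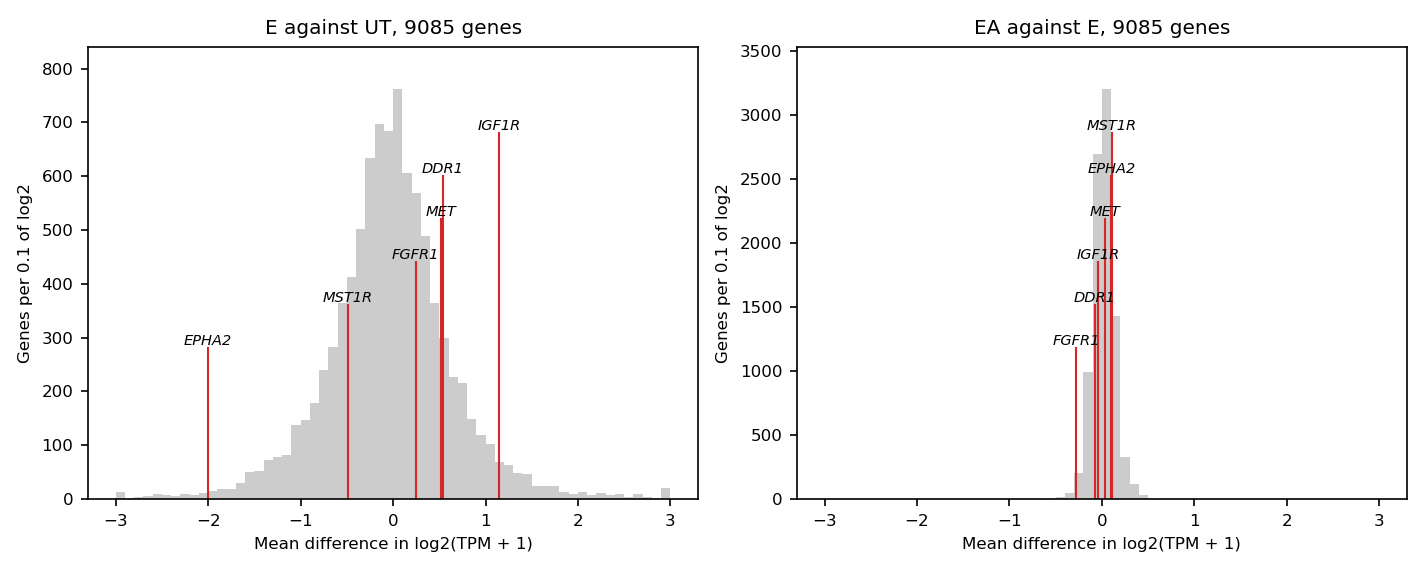
Number of genes per 0.1 of log2 (vertical axes) by the mean difference in log2(TPM + 1) (horizontal axes) between E and UT (left) and between EA and E (right), over 9085 genes, with values beyond 3 placed in the end bins and red lines at the 6 receptors tested. EPHA2 lies at -2.002 and IGF1R at 1.14 in the left panel, and in the right panel the 6 receptors lie between -0.28 and 0.11.

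The second comparison asks what AXL activation adds under erlotinib. EA and E were compared within the 8 lines other than KD and KO. In all of these but PAR only a minority of cells expressed AXL. Whether this affected the differences was not tested. FGFR1 was the only receptor called, and it fell. In the 8 lines its TPM was between 19.4 and 44.3 in E (mean 35.01 ± 8.05) and between 17.8 and 37.1 in EA (28.5 ± 5.88). It fell by 0.28 on the log2 scale (SE 0.061, adjusted p = 0.041), in 8 of 8 lines, from -0.61 in Y821F to -0.05 in Y643F, and the groups overlapped. Over all genes 1.88% were called higher and 0.473% lower. The call was lost in each of the 8 fits that left out a line (adjusted p between 0.0501 and 0.103), with genes of at least 1 TPM (0.067), with protein-coding transcripts only (difference -0.10, adjusted p = 0.42) and without the line as a block (0.56). Intron-retaining FGFR1 transcripts were lower in EA in 8 of 8 lines by a mean of -0.43, and full-length coding ones were higher in 4 of 8, by a mean of -0.04.

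KD, whose AXL lacks kinase activity, went the other way for FGFR1. Its TPM was 24.6 in E and 35.6 in EA, a difference of 0.52. Its intron-retaining transcripts went from 11.6 to 20.5 TPM and its full-length coding transcripts from 9.78 to 10.1 TPM. It is 1 line with 1 library per treatment, so the difference from the other lines was not tested.

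The other 5 receptors did not pass between EA and E. MET differed by 0.03 (SE 0.043, adjusted p = 0.69), IGF1R by -0.04 (SE 0.061, adjusted p = 0.72) and DDR1 by -0.08 (SE 0.081, adjusted p = 0.61). EPHA2 differed by 0.10 (SE 0.059, adjusted p = 0.35) and MST1R by 0.11 (SE 0.058, adjusted p = 0.30). Y821F decided the sign for MET and DDR1. With EA it had the highest MET, 267 TPM, and the lowest DDR1, 83.7 TPM, of the 9 lines. Without Y821F the differences were -1.4e-05 for MET and 0.0032 for DDR1. Its EA library had the highest mitochondrial share of TPM of all libraries, 17.39%, against 12.9% in its E library. PAR came next, at 17.36% in E and 16.4% in EA. With mitochondrial genes left out, the difference between EA and E was 0.048 for MET (limma, adjusted p = 0.59). For DDR1 it was then -0.064 (limma, adjusted p = 0.65). Both kept their sign and did not pass. Whether the mitochondrial share bears on the receptor levels of Y821F itself was not tested.

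Among genes of at least 1 TPM, 0 of 9 receptors passed between EA and E, against 0.475% of 14111 genes called by limma. ROR1 was higher in EA in 8 of 8 lines by 0.21 (SE 0.071, unadjusted p = 0.015 and adjusted p = 0.18 with limma), with a difference of 0.00014 in WT and 0.38 in Y750F. INSR differed by -0.17 (SE 0.15, adjusted p = 0.63) and FGFR3 by 0.09 (SE 0.18, adjusted p = 0.84). INSR in PAR went from 2.71 TPM in E to 0.930 TPM in EA, the lowest of the 9 EA libraries. FGFR2 was at most 0.126 TPM in EA.

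None of the listed genes passed between EA and E by limma, 0 of 6 ligands, 0 of 16 binding and co-receptor genes, 0 of 21 adaptors, 0 of 14 turnover genes and 0 of 12 other receptor tyrosine kinases. At an unadjusted p under 0.05 the counts were 4, 2, 2, 2 and 3, and 1895 of all 9085 genes. Their median differences lay between -0.07 and 0.03, against 0.02 over all genes. The leading transcript share passed for 0 of 9 receptors in the exact sign-flip test, with a lowest unadjusted p of 0.26.

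**Figure D5:**
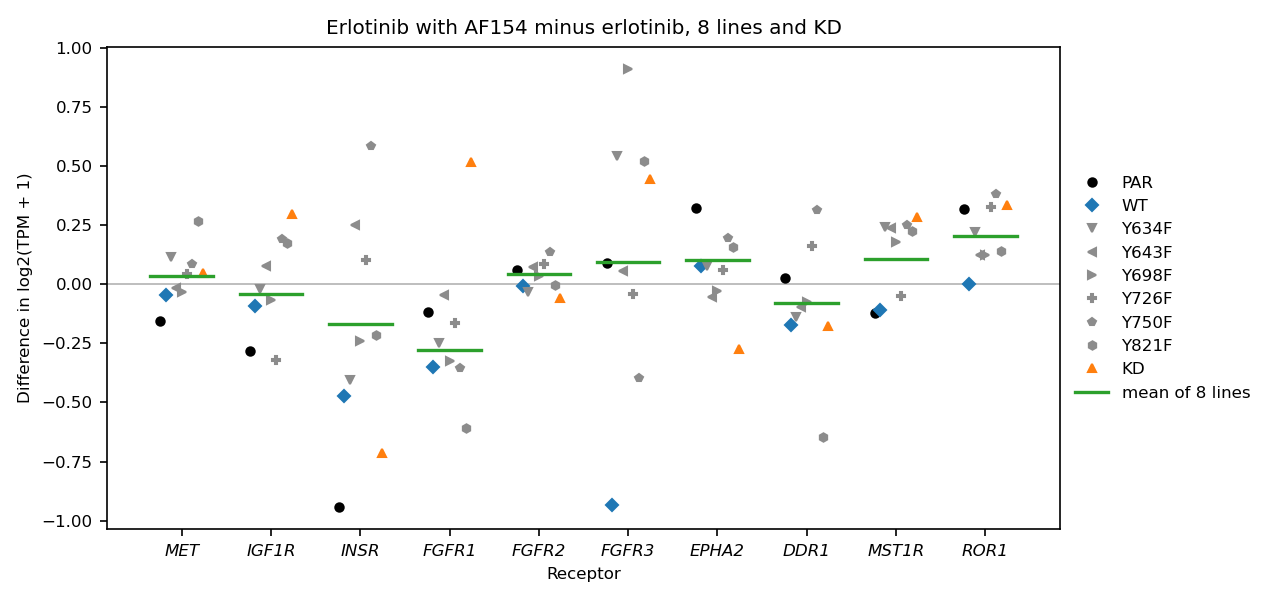
Difference in log2(TPM + 1) between erlotinib with AF154 and erlotinib alone (vertical axis) for each receptor (horizontal axis), with a marker per line, KD in orange, and a green bar at the mean of the 8 lines without KD. FGFR1 is below 0 in the 8 lines and at 0.52 in KD, and Y821F is highest for MET and lowest for DDR1.

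The lines were also set side by side, by ranges and with no test, since each line has 1 library per treatment. PAR lay above all other lines in UT, E and EA for 1 of the 6 kept receptors, IGF1R. Its IGF1R was 46.5 TPM in UT against at most 27.6 in the other lines, 80.04 in E against at most 61.3, and 65.6 in EA against at most 61.9. The ratio to the median of the other lines was 2.05 in UT, 1.48 in E and 1.19 in EA. PAR was highest in UT for MET, EPHA2 and MST1R too, and lowest in E and EA for FGFR1, but not in every treatment. For MET it was the lowest line in EA, at 176 TPM against at least 201 in the other lines. For PAR 1 of 6 receptors compares with 20.5% of genes.

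KO lay outside the 8 transduced lines in both UT and E for 0 of the 6 receptors, against 6.81% of genes. Its untreated FGFR1, at 16.6 TPM, was the lowest of the 10 lines. KD lay outside the 7 other transduced lines in UT, E and EA for 0 of the 6, against 1.71% of genes. KD had the lowest MST1R of the 10 lines in UT (47.0 TPM) and in E (30.05 TPM), but not in EA (36.8 TPM).

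The genes whose level followed each receptor most closely over the 29 libraries were found by Pearson's r of log2(TPM + 1). The libraries share lines and treatments, so r is a description that mixes differences between treatments with those within them. Among the receptors, r of MET with IGF1R was 0.879 over the 29 libraries, 0.894 in UT, -0.556 in E and -0.133 in EA. For EPHA2 with MST1R it was 0.802, 0.553, 0.526 and 0.301. For the genes named next, r within a treatment was not computed. EPHA2 was followed by YWHAH (r = 0.989), MCM7 (0.987) and DUSP4 (0.987), IGF1R by ANXA8L1 (0.974), KRT17 (0.971) and KHDRBS1 (0.967), and MET by OFD1 (0.944), TRIO (0.942) and CDC14B (0.942). DDR1 was followed by CADM4 (0.907), TEKTIP1 (0.907) and RNASEK (0.899), and MST1R by RBM25 (0.896), CAD (0.883) and PNN (0.883). FGFR1 had the weakest likeness, with SIRPA (0.752), FAAP100 (0.726) and GBA2 (0.722).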

How the data were processed

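The authors deposited TPM per transcript for 29 libraries. Their processing notes name kallisto and GRCh38, with no version of kallisto, and the methods remove genes under 10 TPM. Since TPM is scaled to a fixed total, the depth of each library and the counting error are unknown, and the spread over lines gives the precision. Transcripts were matched to GENCODE 29 by identifier (169797 of 188753, holding 97.0 to 97.4% of TPM) and summed to 35579 genes. E and UT were compared in 10 lines, and EA and E in 8, on log2(TPM + 1), for genes averaging 10 TPM or more over the libraries, with limma 3.58.1 (trend) in R 4.3.3, blocking on the line, and with p-values adjusted by Benjamini-Hochberg at 0.05. UT, E and EA libraries of a line come from the same line, which is why it is the block. P-values measure the spread between related lines, not between repeat cultures. In simulated data with 200 genes shifted by 0.5 (log2), 186 were recovered for E against UT and 180 for EA against E. In each, 10 unchanged genes were called too. The simulated spread was independent between genes. The shift was larger than any receptor difference between EA and E, so the recovery does not apply to those. Transcript shares used exact sign flips (1024 and 256). Scripts ran in Python 3.11.15 with pandas 2.3.3 and numpy 2.4.6. The receptors and lists were chosen with earlier results of these data known. The genes named were the 10 receptors, the 3 genes with the highest r for each receptor of at least 10 TPM, and in each list the 3 largest rises and falls past the threshold, of which 1 gene is not reported here. EFNA5, COL1A1 and COL5A1, the other ligands tested, were named outside that rule. Ligands under 10 TPM, the transcript classes, and INSR and MET transcript pairs were chosen after their values were seen. Alternatives were other pseudocounts, filters, scalings, transcript sets and fits, and leaving out each line.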

Additional observations from a re-analysis of the deposited data

Results flagged for a closer look

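Of 45 sets of log2(TPM + 1) levels or differences examined (9 receptors, 3 treatments and 2 comparisons), 6 held a library or line far from the rest by Dixon's test at the 95% level, where chance gives about 1 in 20. PAR was the line in 5 of them. IGF1R in UT was at 5.57 in PAR, against 4.26 to 4.84 in the other lines. EPHA2 in UT was at 6.39 in PAR, against 5.73 to 5.96. The difference of EPHA2 between E and UT was -2.73 in PAR, against -2.19 to -1.67. The difference of FGFR1 between E and UT was -0.66 in PAR, against -0.01 to 0.73. INSR in EA was at 0.95 in PAR, against 1.68 to 2.38. ROR1 in UT was at 4.13 in WT, against 3.57 to 3.87.

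The difference of FGFR1 between EA and E was 0.52 in KD and between -0.61 and -0.05 in the 8 lines with kinase-competent AXL, so that KD moved in the opposite direction from all of them. KD is 1 line, and the difference between it and the others was not tested.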

How the results depend on the processing

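TPM keeps no depth, so low levels (INSR, FGFR3, FGFR2) carry an unknown counting error. Between E and UT, 5 receptors were called with 10 TPM as the filter and 5 to 6 without each line in turn. With a filter of 1 TPM or none the count was 8, since more receptors were tested, but the 2 sets differed. With no filter FGFR3 did not pass (adjusted p = 0.063 with limma). The 8 then included FGFR2, whose mean was only 0.0840 TPM in UT and 0.0245 TPM in E. The FGFR1 difference between E and UT reversed to -0.16 with protein-coding transcripts only. Without the line as a block 5 receptors were called between E and UT. Between EA and E, 1 receptor was called, and 0 with a filter of 1 TPM, no filter, protein-coding transcripts only, no block, the KD pair included, or any line left out (0 to 0). All genes called between EA and E numbered 214 (171 higher and 43 lower, 133 and 72 with library medians centred), 67 with a filter of 1 TPM, 6 with no filter, 323 with mitochondrial genes left out, 361 with protein-coding transcripts only, 9 without the block, 120 with the KD pair included, and 10 (without Y634F) to 188 (without Y726F) with a line left out. Leaving out a line put the difference between EA and E at -1.4e-05 to 0.0603 for MET and -0.134 to 0.0032 for DDR1, and without Y821F both reversed. The leading transcript share between E and UT passed for 1 receptor, FGFR1, when the transcript was chosen over all 29 libraries, a choice that rests on its level in E and EA, and for 0 with protein-coding transcripts only and, added after seeing the data, with the choice made over UT and E or in UT alone. The cause of these changes was not tested. A filter of 1 TPM without PAR was added after seeing the data, and INSR (0.52), FGFR3 (-0.42) and ROR1 (-1.21) still passed between E and UT. Of the other results for single receptors under an alternative, 224 kept their direction and their side of the threshold.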
